A study of Macaca mulatta with 5 samples.

Results

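Of the 51763 transcripts listed for 5 tissues of rhesus macaque, 8057 (15.6%) had no gene identifier. They were chosen as the rows whose gene column was empty in the cerebellum, kidney, lung and heart files. In the spleen file the same 8057 rows, found by their transcript identifiers, carried the authors' own locus labels, which start with IMMRNTR and name 6873 loci, so no row of that file was empty. The other 43706 transcripts carried 1 of 28633 Ensembl gene identifiers and served as the comparison. An empty cell says only that no gene identifier was attached to the model, not what kind of RNA it is or whether a gene is known there.

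The libraries were strand-specific, made by deoxy-UTP incorporation from poly(A)-positive RNA of a male animal for each tissue (cerebellum, kidney, lung, heart and spleen), and each tissue had 1 library and no replicates. The study took cerebellum, kidney, lung and heart from 1 animal, the animal of the spleen is not stated, no ages are given, and the heart entry speaks of RNA from 2 rhesus monkey tissues. With 1 animal and 1 library per tissue, tissue and library cannot be told apart, and the 95% Wilson intervals printed beside some values cover counting error only. Levels are RPKM, reads scaled to the length of exon in kilobases and to the depth of the library. RNA without a poly(A) tail would not be captured, and in bulk tissue fewer cells of a type and less RNA per cell cannot be told apart.

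Spliced transcripts with no gene identifier appear whenever gene models are extended with RNA-Seq data beyond an annotation, and draft primate assemblies such as rheMac2 (the macaque genome build of these files) had incomplete gene sets. Such models can be long non-coding RNAs, transcribed but not translated into protein, unannotated ends or antisense partners of known genes, or protein-coding genes that the annotation missed. Long non-coding RNAs are known to be, on average, lower and more restricted to single tissues than messenger RNAs.

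The files held 48306898 (kidney) to 81517974 (cerebellum) properly mapped reads per library. Reads summed over transcripts were 30336361 (heart) to 71211881 (lung). Heart had 63322572 properly mapped reads, the divisor of its RPKM, for its 30336361 summed reads, while kidney had 38655922 summed reads. How far this lowered the heart shares at a fixed RPKM was not tested. Among transcripts with any read, the upper quartile of the level was 3.99 RPKM for heart and 7.04 to 9.85 for the other 4 tissues. Of the listed marker genes with a symbol in the files, all 5 for kidney, 5 for lung, 4 for heart and 5 for spleen were highest in their own tissue, and so were 4 of 5 for cerebellum. The exception was CALB1, a calcium-binding protein of Purkinje cells and of the distal tubule, with 488 RPKM in kidney and 108 in cerebellum. Transcripts without a gene identifier took 4.62% of the summed reads in kidney, 2.99% in cerebellum, 2.24% in spleen, 2.04% in lung and 1.72% in heart. The kidney share fell to 2.32% without a single transcript, IMMRT10000146648, which held 910525 reads there.

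The transcripts without an identifier were all spread over more than 1 block of the genome, since every span exceeded its exon length, by at least 52 bp. Among those with an identifier, 7988 (18.3%) were a single block, a class that holds many short RNAs. The median exon length was 686 bp without an identifier against 1499 bp with one, or 1836 bp once single-block transcripts were left out. Their median span on the genome was 5340 bp against 12700 bp. Only 359 (4.46%) had 200 bp of exon or less, against 5924 (13.6%) of the comparison, and 12 had 10000 bp or more. No reads were counted in any tissue for 1494 (18.5%) of them and for 8895 (20.4%) of the comparison. Reads in all 5 tissues were counted for 35.5% against 59.9%.

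In each tissue a smaller share of the transcripts without an identifier reached 1 RPKM. In cerebellum 1528 (19.0%) did, against 47.2% of those with an identifier and 42.8% of all transcripts. In kidney the number was 1671 (20.7%), against 49.7% with an identifier and 45.2% of all. Lung had 1807 (22.4%) against 54.0% and 49.1%. Heart was the tissue with the fewest, 767 (9.52%), against 38.1% with an identifier and 33.7% of all, and spleen had the most, 1871 (23.2%), against 51.9% and 47.4%. The difference between the classes was -29.2 ± 1.32 percentage points (mean ± SD over 5 tissues), lower in 5 of 5 tissues (exact two-sided sign-flip permutation test, p = 0.063, the smallest that 5 tissues allow, so 0.05 could not be reached). Each tissue's difference is taken over the same rows, and cerebellum, kidney, lung and heart came from 1 animal. The 5 differences are therefore not independent replicates.

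At 0.1 RPKM, close to the limit of the depth, the gap was narrower. The share was 52.1% in lung, 49.1% in kidney, 48.3% in spleen, 45.8% in cerebellum and 34.1% in heart, against 57.3% to 67.5% with an identifier and 65.1%, 61.5%, 61.7%, 60.6% and 53.7% of all transcripts in the same order. The difference averaged -17.4 ± 3.45 percentage points (SD, n = 5 tissues; lower in 5 of 5, exact permutation p = 0.063). For a transcript of the median length of 686 bp, 3 reads corresponded to 0.0536 RPKM in cerebellum and 0.0905 in kidney, the lowest and highest of the 5 tissues, so 0.1 RPKM rests on few reads.

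**Figure D1:**
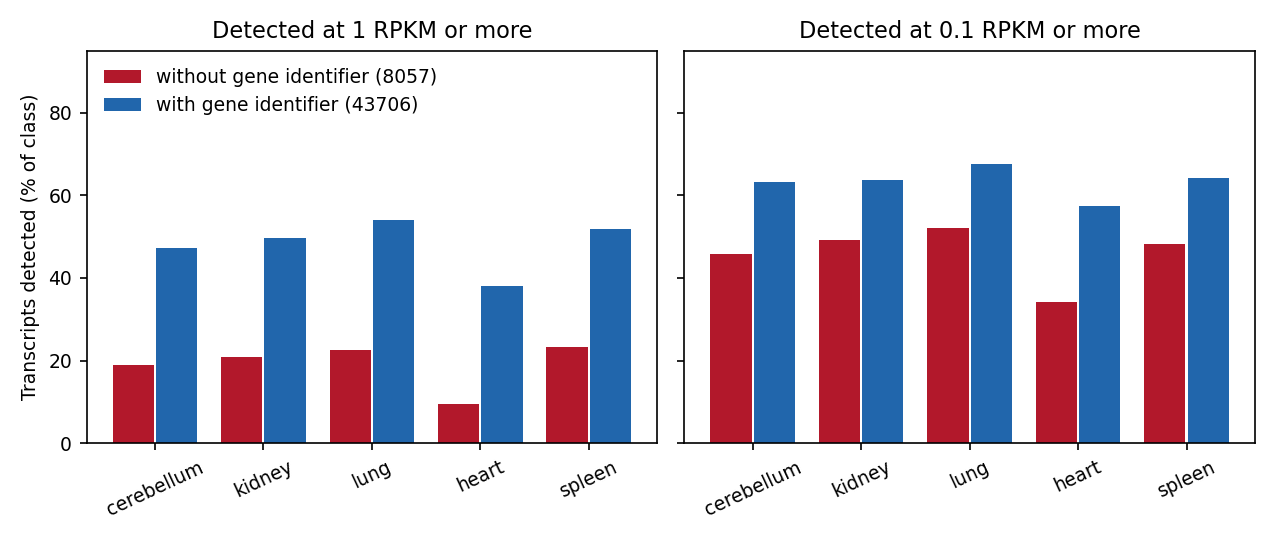
Share of transcripts (%) at 1 RPKM or more (left) and 0.1 RPKM or more (right) in each tissue, 1 library per bar, for the 8057 transcripts without and the 43706 with a gene identifier. The bars without an identifier are lower in all 5 tissues, and in heart they stand at 9.52% and 34.1%.

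The median level was lower as well. It was 0.124 RPKM in lung, 0.0914 in kidney, 0.0781 in spleen, 0.061 in cerebellum and 0 in heart, against 1.51, 0.968, 1.27, 0.75 and 0.309 with an identifier. On the log2(RPKM + 0.1) scale the medians differed by -2.54 ± 0.36 (SD, n = 5 tissues, exact permutation p = 0.063). Levels of 10 RPKM or more were found for 232 transcripts in spleen, 216 in kidney, 180 in lung, 154 in cerebellum and 75 in heart, which was 0.931% to 2.88% of the class against 8.20% to 19.5% of those with an identifier. Between 3 and 9 of the 8057 reached 100 RPKM per tissue, against 270 to 456 of the 43706 with an identifier. As the classes differ in size, these counts are not shares. The 99th percentile was 8.87 RPKM (heart) to 19.5 (kidney) without an identifier. With an identifier it was 65.4 (heart) to 103 (lung). The class also held some of the most abundant RNAs of the files, with the highest rank of all 51763 transcripts in kidney and rank 6 in cerebellum, while the best rank was 108 in heart, 251 in lung and 254 in spleen.

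Part of the gap went with exon length. When the comparison was weighted to the exon lengths of the transcripts without an identifier, in 10 bins set by their deciles, the mean difference at 1 RPKM was -19.9 percentage points in place of -29.2, and at 0.1 RPKM it was -9.01 in place of -17.4. In the shortest bin, 38 to 260 bp, the order was the other way round, with 8.36% at 1 RPKM (mean of 5 tissues) against 2.58%. In that bin 86.8% of the comparison were single blocks, and those that were not stood at 5.51%. From the second bin on, the transcripts without an identifier were lower, at 9.74% against 14.7% in the second bin and 42.0% against 71.4% in the longest, from 2475 bp up. Detection rose with length in both classes.

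**Figure D2:**
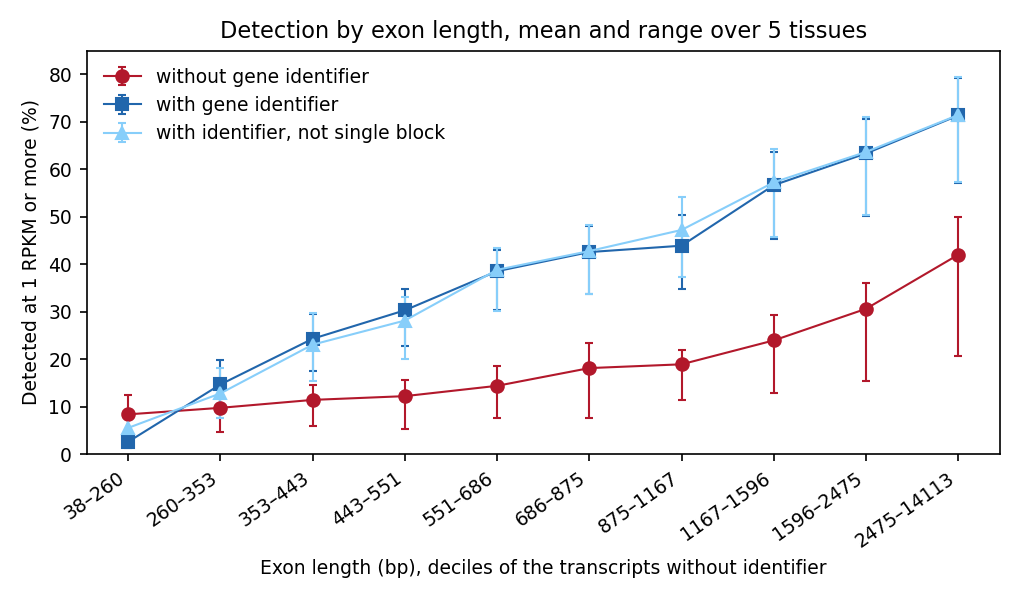
Share of transcripts (%) at 1 RPKM or more by exon length (bp), in bins set by the deciles of the transcripts without a gene identifier; points are means and bars the range over 5 tissues. The line without an identifier rises from 8.36% to 42.0% and lies under the line with an identifier in every bin but the shortest.

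At 1 RPKM in at least 1 tissue, 3354 transcripts without an identifier were detected (41.6%), against 64.7% with an identifier and 61.1% of all transcripts. The gap in this share was small at lower thresholds, with 5944 (73.8%) against 75.5% at 0.1 RPKM, and 6080 (75.5%) against 76.6% of all transcripts at 3 reads. In all 5 tissues 415 were (5.15%), against 32.2% with an identifier and 28% of all. Of the 3354, 1524 (45.4%) reached 1 RPKM in 1 tissue and 415 (12.4%) in all 5. For those with an identifier the order was reversed, 15.2% in 1 tissue and 49.7% in all 5. At 0.1 RPKM the same shares were 25.2% and 31.8% without, against 9.19% and 68.2% with, an identifier. Heart bears on the count in all 5 tissues, since 680 transcripts without an identifier (8.44%) reached 1 RPKM in the other 4. The share of all transcripts was higher without heart as well, at 33.4%.

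A low transcript can pass a threshold in few tissues because of its level alone, so the classes were also set side by side within ranges of the highest RPKM. Between 1 and 2 RPKM they were close, with 72.1% in 1 tissue without an identifier and 65.7% with one. Between 5 and 10 RPKM the shares were 27.5% against 7.82%. Between 10 and 50 RPKM, 24.8% of 443 transcripts without an identifier were in 1 tissue and 39.7% in all 5, against 6.73% and 69.6% of 11177 with one. At 50 RPKM and above, where 59 transcripts had no identifier, 22.0% were in 1 tissue and 35.6% in all 5, against 7.69% and 69.9%. The classes thus differed in breadth at like levels above 2 RPKM, a description with no replicate check.

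**Figure D3:**
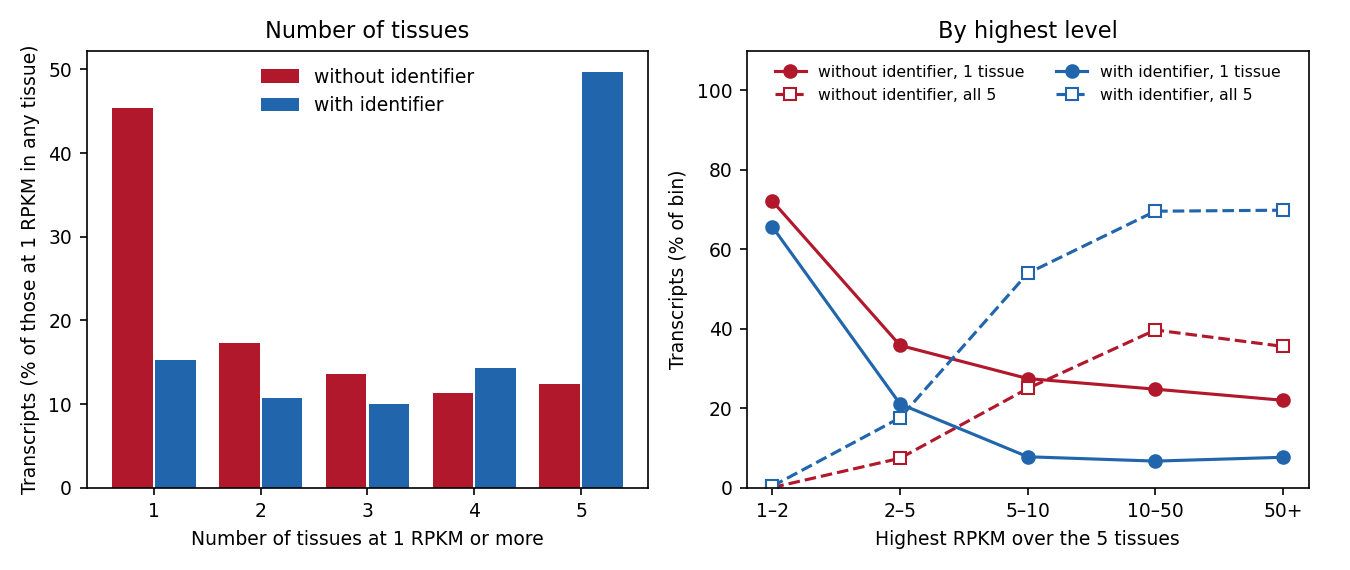
Left, number of tissues at 1 RPKM or more, as % of the transcripts detected in any tissue. Right, share (%) found in 1 tissue (solid) and in all 5 (dashed) by the highest RPKM over the 5 tissues. Without an identifier 45.4% were in 1 tissue and with one 49.7% were in all 5, and the classes stay apart in the ranges above 2 RPKM.

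The tissues were not equal sources of single-tissue transcripts. Of the 1524 without an identifier, kidney held 396, cerebellum 380, spleen 370, lung 272 and heart 106. Kidney made up 26.0% of them against 19.8% among those with an identifier, and cerebellum 24.9% against 32.6%. Of the 580 found in exactly 2 tissues, 213 (36.7%) were in lung and spleen, against 40.7% of the comparison, 80 in kidney and lung, and 4 in heart and spleen. Scaling the libraries to the same upper quartile, which raised heart 2.02-fold, changed the heart count to 224 (14.3%, against 8.73% of the comparison). The lung and spleen count became 141 of those found in exactly 2 (25.6%, against 31.7%).

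A transcript was called enriched in a tissue when it had at least 1 RPKM there and RPKM + 0.1 was at least 4-fold above every other tissue. Kidney had the most such transcripts without an identifier, 323 (4.01%, against 2.91% of all transcripts), and cerebellum had 274 (3.40%, against 3.77%). Spleen had 192 (2.38%, against 2.18%), lung 160 (1.99%, against 2%) and heart 96 (1.19%, against 0.867%). The 1045 in all were 13.0% of the class, close to the 11.5% of those with an identifier, although far fewer of the class were detected at all. As a share of the transcripts at 1 RPKM in that tissue, the enriched ones were 19.3% in kidney against 5.43%, 17.9% in cerebellum against 8.14%, 12.5% in heart against 2.12%, 10.3% in spleen against 4.12% and 8.85% in lung against 3.71%. With a pseudocount of 1 in place of 0.1, these shares were 9.10% against 4.10% in kidney, 7.59% against 5.80% in cerebellum, 4.82% against 1.78% in heart, 3.15% against 2.30% in spleen and 2.05% against 1.99% in lung. The same pseudocount left 152 past the fold in kidney (1.89% of the class, against 2.02% of all), 59 in spleen (0.732%, against 1.12%) and 37 in heart (0.459%, against 0.643%), so the higher share of the class in these 3 tissues depended on that choice. No reads were counted in the other 4 tissues for 81 of the kidney, 36 of the cerebellum, 31 of the lung, 30 of the spleen and 28 of the heart transcripts. The same count was not made for transcripts with an identifier, so it cannot be said whether these numbers are particular to the class.

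On the genome, the share of transcripts without an identifier ran from 9.70% on chromosome X, 12.2% on chromosome 15 and 13.0% on chromosome 1 to 20.1% on chromosome 17, 21.3% on chromosome 18 and 22.0% on chromosome 3. All 38 mitochondrial rows had an identifier. Per megabase up to the last listed transcript, chromosome 19 had the most (6.90) and X the fewest (1.34). On chromosomes 19, 20 and 16 the transcripts without an identifier were detected most often, with 56.8%, 55.2% and 54.7% at 1 RPKM in any tissue. On chromosomes 17 and 18 they were detected least, with 30.6% and 31.6%. Those with an identifier ran from 51.3% on X to 72.7% on 20, and none of the mitochondrial rows reached 1 RPKM. How reads were counted on the mitochondrial rows is not stated, so this does not show that their RNA was absent.

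The files give each transcript's first and last position but no strand and no exon positions, so overlap was judged on spans of either strand. Whether the counting used the strand is not stated, so reads of overlapping models, sense or antisense, cannot be told apart. 5401 (67.0%) overlapped no transcript with an identifier, 1324 (16.4%) lay inside the span of one, 700 (8.69%) overlapped one in part, and 632 (7.84%) spanned one entirely. Detection at 1 RPKM in any tissue was 39.3% for those that overlapped none and 46.4% for the 2656 that overlapped one. Of the 5401, the median distance to the nearest transcript with an identifier was 15516 bp (quartiles 3728 and 48387). Detection fell with distance, from 54.4% of the 651 within 1000 bp to 20.8% of the 740 at 100000 bp or more. The share in all 5 tissues went from 9.22% to 0.811% over the same range, while the median exon length went from 752 to 537 bp.

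**Figure D4:**
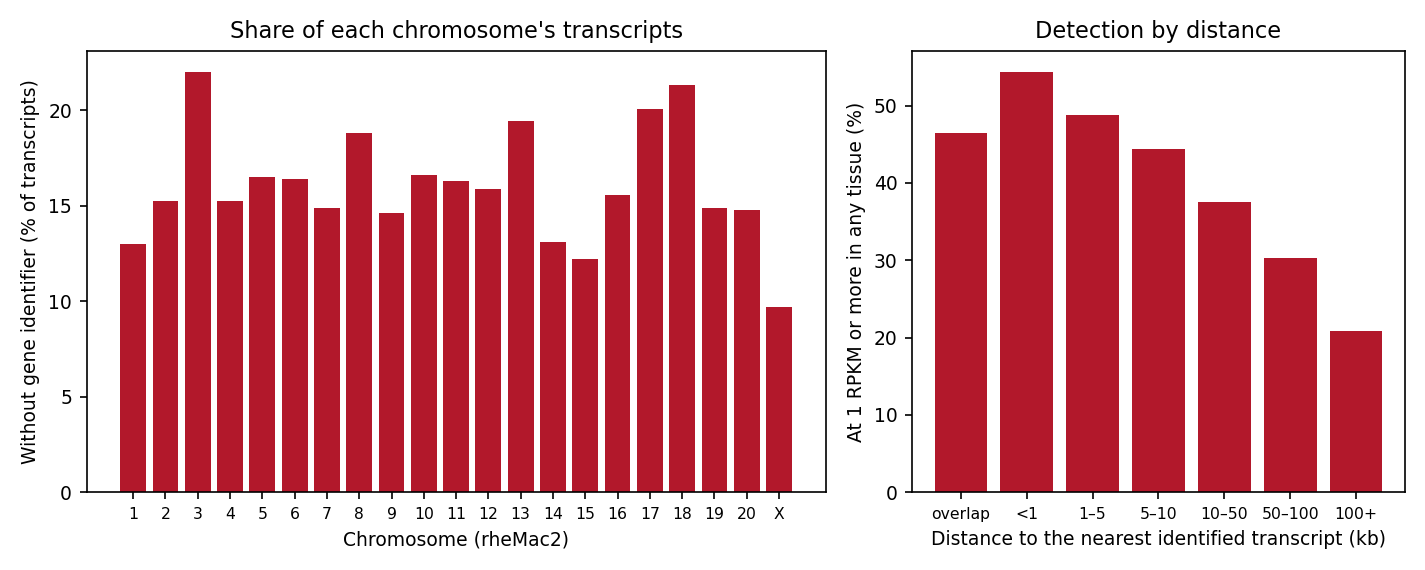
Left, transcripts without a gene identifier as % of the transcripts on each chromosome of rheMac2. Right, % of them at 1 RPKM or more in any tissue, for those that overlap a transcript with an identifier on either strand and by distance (kb) for the rest. Chromosome 3 is highest at 22.0% and X lowest at 9.70%, and detection falls from 54.4% under 1 kb to 20.8% at 100 kb or more.

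Where both a transcript and its nearest gene reached 1 RPKM in some tissue, their highest tissues were compared. Within 5000 bp the highest tissue was the same for 377 of 707 pairs (53.3%). It was the same for 45.1% of 780 pairs at 5000 to 50000 bp, 38.4% of 211 pairs farther apart and 40.8% of 703 overlapping pairs. Neighbouring genes with an identifier were compared the same way. They had the same highest tissue in 33.1% of 3443 pairs within 5000 bp and 34.7% of 4101 pairs at 5000 to 50000 bp. The share was 29.1% of 856 such pairs farther apart and 47.2% of 1885 overlapping pairs. Counting overlapping models once left the share within 5000 bp at 54.0% of 568 pairs. Transcripts inside the span of a gene were mostly lower than it, with a median log2 ratio of -3.69 in lung to -3.91 in kidney, and were higher than the gene in 13.6% (heart) to 19.5% (spleen) of the pairs in which either reached 1 RPKM.

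The spleen labels group the 8057 transcripts into 5965 loci with 1 transcript and 908 with several, at most 6. Within the 500 loci that had at least 2 transcripts at 1 RPKM, the highest tissue was the same for all of them in 422 (84.4%). Transcripts of a locus overlap and can share reads, and in 35 loci 2 transcripts had identical read numbers in every tissue, so they are not independent rows.

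The current RefSeq annotation of the macaque genome (T2T-MMU8v2.0) is on another build, so it was used only to list which genes lie between the same 2 named flanking genes. For 6675 transcripts the interval held 10 or fewer RefSeq genes. In 3628 of these (54.4%) RefSeq lists a protein-coding gene whose symbol was paired with no identifier of the files, in 499 (7.48%) only coding genes that the files also name, in 1230 (18.4%) long non-coding genes without a coding gene, and in 1318 (19.7%) neither. The flanks were the nearest genes named in the files, so most coding genes between them are genes that the files do not name. The split between the first 2 groups was thus largely set by how the interval was drawn. No such shares are given for transcripts with an identifier. A missing symbol can also be a gene that the files list without a name, since 15556 of the 28633 gene identifiers had a symbol. Detection at 1 RPKM in any tissue was 43.5%, 41.5%, 34.6% and 43.4% in that order. For 388 transcripts, some of which share an interval, exactly 1 coding gene was listed, it was not named in the files, and the files listed no unnamed gene between the flanks. Of these transcripts, 51.3% reached 1 RPKM in any tissue and 8.51% in all 5. A place between the same neighbours does not identify a transcript, and the RefSeq genes named below are given as the contents of the interval only.

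By the naming rule, 28 transcripts of 24 loci are described: those highest in each tissue, those highest among the enriched, those with the highest minimum over the tissues, and the longest. All have more than 200 bp of exon. 18 of them overlapped no transcript with an identifier.

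**Figure D5:**
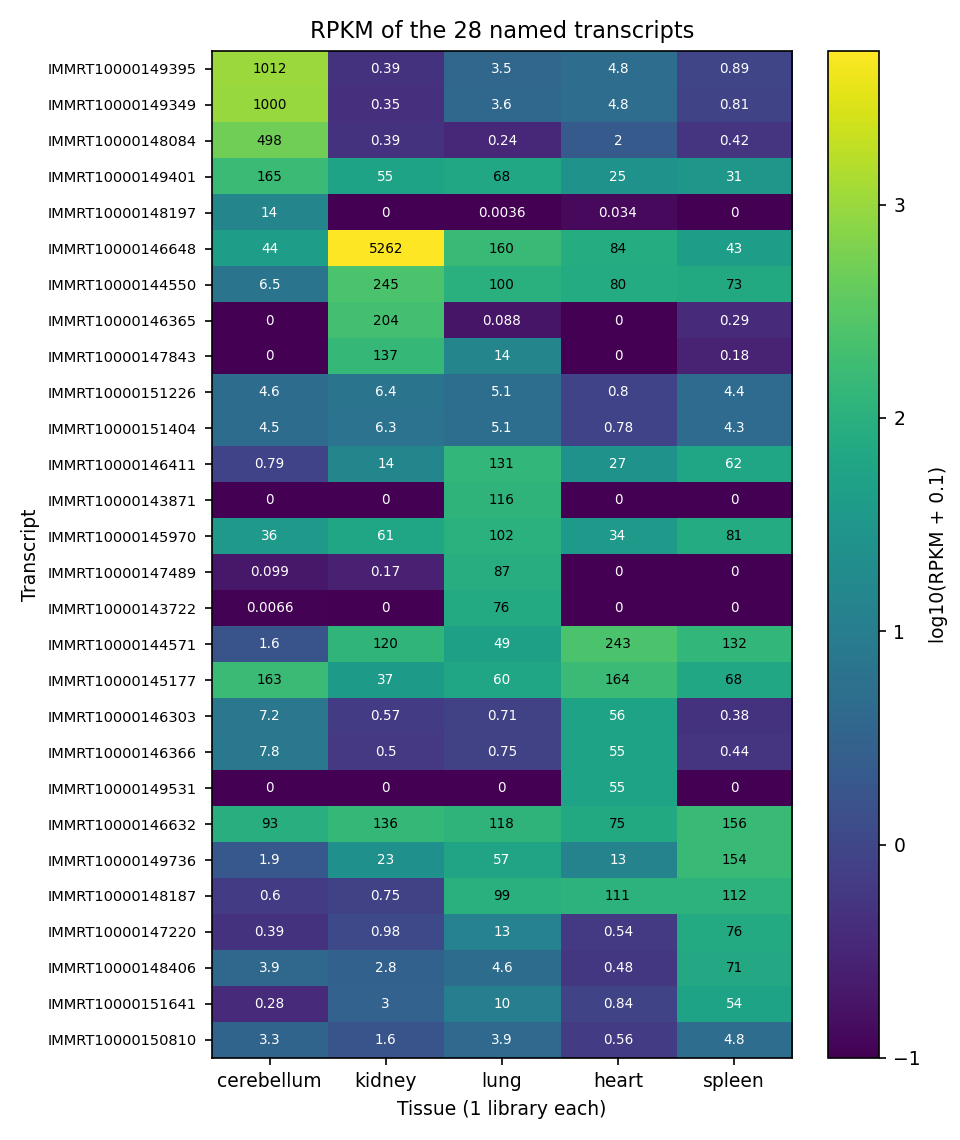
RPKM of the 28 named transcripts without a gene identifier in each tissue (1 library each), with colour on a log10(RPKM + 0.1) scale and the deposited RPKM printed in each cell. Rows are ordered by the tissue with the highest value. The 3 top cerebellum rows and IMMRT10000149531 in heart are at or under 5 RPKM elsewhere, while IMMRT10000146632 stays between 74.6 and 156.

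In cerebellum 2 overlapping transcripts led. IMMRT10000149395 (X, 139054363 to 139056126, 1692 bp of exon) had 1012 RPKM in cerebellum (95% interval 1006 to 1017). Elsewhere it had 4.78 RPKM in heart, 3.50 in lung, 0.889 in spleen and 0.392 in kidney. It ranked 6 of all transcripts in cerebellum and was 212-fold above heart, the next tissue. IMMRT10000149349, of the same locus and with 1703 bp, had 999.8 RPKM in cerebellum, on 138800 reads against 139537. The files do not show how many of these reads are the same, so the pair is treated as 1 observation. Both span ENSMMUG00000021739, an unnamed gene with 0.0724 RPKM in cerebellum and none elsewhere.

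IMMRT10000148084 (chromosome 3, 6714478 to 6775561) had 425 bp of exon in a span of 61084 bp. It had 497.8 RPKM in cerebellum, then 2.04 in heart, 0.421 in spleen, 0.390 in kidney and 0.242 in lung, and ranked 27 of all transcripts in cerebellum. The cerebellum value was 244-fold above heart. It lay 78755 bp from DSCAM, a neuronal adhesion molecule, and 61529 bp from IGSF5, and RefSeq lists 1 gene between these, PCP4, a small calmodulin-binding protein of Purkinje cells. Among named genes SLC17A7, the vesicular glutamate transporter that granule cells use, was nearest to it in pattern (root mean square distance 0.92 in log2 over 5 tissues), with 132 RPKM in cerebellum.

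A broader transcript was IMMRT10000149401 (X, 101931686 to 101933318), with 165 RPKM in cerebellum, 67.7 in lung, 55.3 in kidney, 31.5 in spleen and 25.4 in heart. It was highest in cerebellum by 2.43-fold and present everywhere. It lay inside the span of ENSMMUG00000032385, which was at 0.0214 RPKM or 0 in every tissue.

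In kidney the most abundant transcript of the whole file had no identifier. IMMRT10000146648 (chromosome 6, 147414850 to 147444056, 3582 bp of exon) had 5262 RPKM in kidney (5251 to 5273), 160 in lung, 83.7 in heart, 44.0 in cerebellum and 42.6 in spleen. Kidney was 32.9-fold above lung, and the transcript was also among the highest of the class in lung and heart and in its minimum over tissues. Its span overlapped in part TNIP1, an inhibitor of NF-kB signalling, which had 12.3 to 47.0 RPKM in the 5 tissues and its highest level in spleen. RefSeq lists GPX3, the glutathione peroxidase that the kidney secretes into plasma, among the 2 genes between the flanking ZNF300 and ANXA6.

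The other leading kidney transcripts differed in how far they were confined to that tissue. IMMRT10000144550 (chromosome 14, 9006374 to 9015141) had 245 RPKM in kidney, 99.7 in lung, 80.4 in heart, 73.3 in spleen and 6.55 in cerebellum, so 4 tissues were high. IMMRT10000146365 (chromosome 1, 49919221 to 49923023) had 204 RPKM in kidney, 0.088 in lung, 0.289 in spleen and no reads in cerebellum or heart. Its pattern was nearest to SLC3A1, the cystine and dibasic amino acid transporter subunit of the proximal tubule (186 RPKM in kidney, distance 0.19).

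IMMRT10000147843 (chromosome 16, 23687668 to 23691795) had 137 RPKM in kidney, 14.1 in lung, 0.18 in spleen and no reads in cerebellum or heart. Kidney was thus 9.76-fold above lung. It lay between SLC46A1, a folate transporter, and FOXN1, and RefSeq lists 1 gene in that interval, SLC13A2, a sodium-coupled dicarboxylate transporter of the renal tubule. Another 2 transcripts in the same interval, named after their values were seen, were also highest in kidney, IMMRT10000147791 with 101 RPKM and IMMRT10000147699 with 17.5.

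In lung, IMMRT10000146411 (chromosome 6, 135881430 to 135889033) had the second highest level of the class, 131 RPKM, and ranked 317 of all transcripts. It had 62.2 RPKM in spleen, 26.9 in heart, 14.5 in kidney and 0.791 in cerebellum. It lay between DNAJC18 and STING1, where RefSeq lists ECSCR, an endothelial surface protein, and SMIM33. The genes nearest in pattern were LTBP4 (distance 0.55), which binds latent TGF-beta, and CAVIN2 (0.65), a coat protein of caveolae. All 3 were low in cerebellum and high in lung.

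A locus beside NKX2-1 was found in lung alone. IMMRT10000143871 (chromosome 7, 99441233 to 99452612, 614 bp of exon) had 116 RPKM in lung (113 to 119) and no reads in the other 4 tissues, so lung was at least 1146-fold above the level of 3 reads in any other library. IMMRT10000143722 of the same locus, with 3700 bp, had 76.2 RPKM in lung, 0.00663 in cerebellum (2 reads) and none elsewhere. It lay 2360 bp from NKX2-1, the transcription factor of lung and thyroid epithelium, which had 32.9 RPKM in lung and 0 in the other tissues. MS4A15 (112 RPKM in lung, distance 0.021) was nearest in pattern to IMMRT10000143871, followed by SFTPD, surfactant protein D (142 RPKM, 0.13). SCGB3A2, a secretoglobin of airway epithelium, was nearest to IMMRT10000143722 (84.9 RPKM, 0.081). MS4A15, SFTPD and SCGB3A2 were at 0 RPKM in the other 4 tissues. Their distances thus rest on the lung level alone, which also named the transcripts, and any gene found only in lung at a like level would be as near.

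IMMRT10000147489 (chromosome 16, 26446331 to 26447602) lay inside the span of NF1, the neurofibromin gene. It had 87.0 RPKM in lung, 0.168 in kidney and 0.0993 in cerebellum on 4 reads each, and none in heart or spleen. NF1 itself had 1.08 to 6.89 RPKM over the 5 tissues, highest in spleen, so the tissue with the highest level was not the same for the 2.

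In heart the highest of the class was IMMRT10000144571 (chromosome 14, 1906568 to 1907923), with 243 RPKM in heart, 132 in spleen, 120 in kidney, 48.8 in lung and 1.56 in cerebellum. It lay 157 bp from the gene of mml-mir-675, whose row of 1073 bp had 81.8 RPKM in heart, 54.7 in kidney, 48.4 in spleen, 18.7 in lung and 0.423 in cerebellum. Both were highest in heart and lowest in cerebellum. RefSeq lists H19, the imprinted non-coding RNA that hosts miR-675, in the interval between MRPL23 and INS.

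IMMRT10000145177 (chromosome 19, 54106667 to 54111893) had 164 RPKM in heart and 163 in cerebellum, 67.8 in spleen, 59.7 in lung and 36.6 in kidney. The intervals of heart (162 to 166) and cerebellum (161 to 165) overlapped. IMMRT10000148187 (chromosome 3, 136623325 to 136634699) had 112 RPKM in spleen, 111 in heart and 99.4 in lung, but 0.605 in cerebellum and 0.748 in kidney. It lay between SEMA3C and GNAI1, where RefSeq lists CD36, a fatty acid and scavenger receptor, and GNAT3, a taste cell G protein.

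Among the heart-enriched transcripts, IMMRT10000149531 (chromosome 4, 140440527 to 140500946, 820 bp of exon) had 54.6 RPKM in heart (52.6 to 56.7) and no reads in the other 4 tissues, at least 721-fold above the level of 3 reads there. It lay inside the span of TRDN, triadin, a protein of the calcium release complex of muscle, which had 73.1 RPKM in heart and at most 0.133 elsewhere. IMMRT10000146303 and IMMRT10000146366 are models of 1 locus on chromosome 1 (from 123312284 to 123341905) with 55.5 and 54.8 RPKM in heart. The first had 7.24 in cerebellum and 0.384 to 0.715 in kidney, lung and spleen. Both models overlapped the unnamed genes ENSMMUG00000031777 and ENSMMUG00000031778, which had at most 0.458 RPKM in any tissue.

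In spleen, IMMRT10000149736 (chromosome 4, 31085985 to 31088842) had 154 RPKM, and 56.7 in lung, 23.2 in kidney and 13.0 in heart, while cerebellum had 1.86. It lay 32853 bp from MIC1, and its pattern was near that of MAMU-DRB1, an MHC class II gene of antigen-presenting cells (204 RPKM in spleen, distance 0.61). IMMRT10000147220 (chromosome 11, 25337788 to 25343017) had 75.8 RPKM in spleen and 12.6 in lung, and 0.387 to 0.981 elsewhere. It lay inside IRAG2, an endoplasmic reticulum membrane protein of lymphocytes, which had 79.4 RPKM in spleen and 16.6 in lung. LPXN, a leukocyte focal adhesion protein, was nearest in pattern among all genes (49.6 RPKM in spleen, distance 0.36).

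IMMRT10000148406 (chromosome 3, 69762375 to 69763676) had 70.7 RPKM in spleen, 4.58 in lung, 3.91 in cerebellum, 2.81 in kidney and 0.482 in heart. It was 246940 bp from the nearest transcript with an identifier, and the gene most like it in pattern was MEST, an imprinted hydrolase (77.1 RPKM in spleen, distance 0.23). IMMRT10000151641 (chromosome 5, 73426019 to 73435924) had 54.4 RPKM in spleen, 10.5 in lung and 2.96 in kidney, and under 1 RPKM in heart (0.842) and cerebellum (0.279). It lay 937 bp from CEP135, a centriole protein that had 0.104 to 1.68 RPKM, highest in kidney.

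Some transcripts without an identifier were near even over the tissues. IMMRT10000146632 (chromosome 6, 93866648 to 93870522, 2403 bp of exon) had 156 RPKM in spleen, 136 in kidney, 118 in lung, 93.2 in cerebellum and 74.6 in heart, a range of 2.09-fold. Its pattern was nearest to EEF2, the elongation factor that moves the ribosome along (93.7 to 174 RPKM, distance 0.26), although it lay 191324 bp from the nearest transcript with an identifier. IMMRT10000145970 (chromosome 1, 89558240 to 89564347) had 102 RPKM in lung, 81.1 in spleen, 61.4 in kidney, 35.5 in cerebellum and 33.9 in heart. Its 3.01-fold range was nearest to that of ARHGDIA (distance 0.12). Heart was the lowest tissue for both, as it was in the upper quartile of all transcripts.

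The 4 longest transcripts without an identifier had at most 13.9 RPKM in any tissue, below the highest level of every other named transcript. In their highest tissues they were not low for the class, whose median was 0.124 RPKM in lung and less elsewhere. In cerebellum IMMRT10000148197 ranked 112 of the 8057. IMMRT10000148197 (chromosome 3, 50095179 to 50114599) had 14113 bp of exon and was the tissue-restricted one, with 13.9 RPKM in cerebellum and no reads in kidney or spleen, while heart had 0.0336 RPKM on 30 reads and lung 0.00364 RPKM on 4 reads. The other 3 were broad. IMMRT10000150810 (12822 bp, chromosome 13, 73985650 to 73998785), inside the span of DUSP11, an RNA phosphatase, had 0.557 RPKM in heart to 4.84 in spleen. IMMRT10000151226 and IMMRT10000151404 (12447 and 12104 bp) are models of 1 locus on chromosome 10, 8166 and 8209 bp from RBFOX2, a splicing regulator. They had 0.799 and 0.783 RPKM in heart and 6.37 and 6.31 in kidney, whereas RBFOX2 was highest in cerebellum with 52.4.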

How the data were processed

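Read counts per transcript and RPKM values were used as deposited by the authors, from 1 library of poly(A)-positive RNA, made by a stranded protocol, for each tissue. The authors' RPKM divides the read count by exon length and by the properly mapped reads in the file header, and recomputing it gave the deposited value in every row. Deposited exon length and span were the only structural values, with no strand. Per the labels, TopHat 1.2.0 was among the submitters' tools. The counting tool and the way the transcript models were made are not given in the sources used here. A read may be counted on several overlapping transcripts, so sums are not distinct reads.

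Rows were joined by transcript identifier, and positions were written 1-based on rheMac2. The 2 classes were compared by the share at 1 and 0.1 RPKM and by the median log2(RPKM + 0.1), and each difference was tested over the 5 tissues with the exact two-sided sign-flip permutation test. No test was made between tissues or between transcripts, since each tissue had 1 library. The functions were tested on simulated data. Enrichment required 1 RPKM and a 4-fold excess. 95% Wilson intervals and a floor of 3 reads cover counting error only.

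Named transcripts, with over 200 bp of exon and at least 10 reads in the tissue that names them, were the 4 highest and the 3 highest enriched per tissue, the 4 with the highest minimum and the 4 longest. The most similar gene had the smallest root mean square distance of log2(RPKM + 0.1). For a transcript confined to 1 tissue this distance rests mainly on the level there, which also named the transcript. Members, lists and rules were chosen with earlier results of these data known. Marker lists (6 genes each for cerebellum, kidney, lung, heart and spleen, and 3 of red blood cells) were used to check the labels; of the red blood cell genes HBB had no row with that symbol, HBA1 was at 0 in every tissue, and ALAS2 was at most 0.947 RPKM, in spleen. Alternatives were other thresholds, pseudocounts, scalings, filters, ways to count overlapping models, and leaving out tissues. Sequences were not used here. The work used scipy 1.17.1, pandas 2.3.3 and numpy 2.4.6 on Python 3.11.15, with figures by matplotlib 3.10.9.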

Additional observations from a re-analysis of the deposited data

How the results depend on the processing

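The 3 differences between transcripts without and with a gene identifier kept their negative sign in all 46 alternatives run: -37.7 to -19.9 percentage points at 1 RPKM, -27.5 to -8.35 at 0.1 RPKM, and -3.49 to -0.84 for the median log2. The last ranged down to -1.10 with 1 transcript per gene identifier, -1.05 when standardized to exon length and -0.84 with a pseudocount of 1. Leaving out a tissue gave p = 0.125 (exact permutation), the smallest that 4 tissues allow. A comparison among single-block transcripts gave no value, since the class holds none.

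The number at 1 RPKM in any tissue (3354) was 6080 at 3 reads, or 75.5% against 76.6% of all transcripts. It was 2121 for those overlapping no transcript with an identifier (39.3%, against 61.1%). The number in all 5 tissues (415) was 767 at 0.5 RPKM (9.52%, against 35.3% of all transcripts) and 2360 at 3 reads (29.3%, against 52.4%). It was 680 without heart (8.44%, against 33.4%) and 229 without overlapping ones (4.24%, against 28.0%). With a pseudocount of 1 the enriched numbers were 152 in kidney, 116 in cerebellum (1.44%, against 2.54% of all transcripts), 59 in spleen, 37 in lung (0.459%, against 0.978%) and 37 in heart. At 8-fold they were 174 in cerebellum (2.16%, against 2.60% of all transcripts), 80 in lung (0.993%, against 1.04%) and 110 in spleen (1.37%, against 0.854%). Among transcripts overlapping none with an identifier they were 202 in kidney (3.74%, against 2.91%) and 55 in heart (1.02%, against 0.867%), and upper quartile scaling gave 161 in heart (2.00%, against 1.62%). The smaller counts under stricter or fewer rows follow from the alternatives' construction. Leaving out heart, 1 transcript per spleen locus label and the restriction to non-overlapping transcripts were chosen after seeing the data.

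No paired analysis was possible because the labels carry no replicate numbers and each tissue has 1 library. At these depths 3 reads correspond to 0.0536 to 0.0905 RPKM for a transcript of the median length of the class, so absence below that was not detectable.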

Other observations

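Further transcripts lay in intervals for which RefSeq lists 1 gene that is not named in the files. They were chosen after their values were seen and have no replicate check, and the interval does not identify them. Several were restricted to 1 tissue. IMMRT10000150754 (chromosome 13, between ALMS1 and TPRKB, RefSeq NAT8, an acetyltransferase of the kidney) had 56.4 RPKM in kidney, 0.122 in spleen and no reads elsewhere. It lay inside the span of a transcript with an identifier. IMMRT10000143902 (chromosome 7, between NAA30 and SLC35F4, RefSeq CCDC198) had 31.8 RPKM in kidney and at most 0.069 elsewhere. IMMRT10000145940 (chromosome 1, between FCRL4 and FCRL2, RefSeq FCRL3, an Fc receptor-like protein of B cells) had 19.0 RPKM in spleen, 0.93 in lung and none elsewhere. IMMRT10000144942 (chromosome 19, between DENND1C and TNFSF9, RefSeq TUBB4A, a neural beta-tubulin) had 17.1 RPKM in cerebellum and at most 0.359 elsewhere.

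Others were even over the tissues. IMMRT10000145281 (chromosome 19, between CATSPERG and GGN, RefSeq PSMD8, a proteasome subunit) had 21.1 RPKM in heart to 30.4 in cerebellum. IMMRT10000148492 (chromosome 3, between HYCC1 and IL6, RefSeq TOMM7, part of the mitochondrial import complex) had 13.4 RPKM in heart to 32.5 in spleen. IMMRT10000144665 (chromosome 14, between SELENOH and MED19, RefSeq TMX2, a thioredoxin-related membrane protein) had 14.6 RPKM in spleen to 33.4 in kidney and lay inside the span of a transcript with an identifier. IMMRT10000145141 (chromosome 19, between MED29 and PLEKHG2, RefSeq ZFP36, an RNA-binding protein that destabilizes cytokine messages) was uneven, with 54.8 RPKM in lung, 19.8 in spleen and 1.49 in cerebellum.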
